A study of Homo sapiens with 12 samples.

Results

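The genes described here are those of AMPK, the AMP-activated protein kinase, and of its upstream kinases LKB1 and CAMKK2. They are 8 genes chosen by symbol: PRKAA1 and PRKAA2 (the catalytic α subunits), PRKAB1 and PRKAB2 (the β subunits), PRKAG1 and PRKAG2 (the γ subunits), STK11 (which encodes LKB1) and CAMKK2. The symbols were matched to Ensembl IDs without their version, and all 8 were found among the 58288 gene IDs of the count table. All 8 also passed the filter on low counts that left 13959 genes for testing.

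RNA was sequenced from HK2, an established human cell line labelled as proximal tubule of the kidney, in 4 groups of 3 libraries that the labels call biological replicates. Nontarget cells (shControl) carried a short hairpin RNA, or shRNA, that was not directed at FLCN, and knockdown cells carried an shRNA against FLCN. Both were harvested in short-term culture (fewer than 30 passages) and in long-term culture (after 120 passages, by the labels). All cells grew in DMEM with 10% fetal bovine serum. The clone behind each library is not stated, so the effect of the shRNA and that of a clone cannot be told apart, and in the long-culture comparisons a clone and the time in culture cannot be told apart either. Libraries held 5825779 to 8991051 counts. In bulk RNA, fewer cells that express a gene and less RNA of it per cell cannot be told apart.

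The labelled cell type was compared with its markers. Of 10 proximal tubule markers, 3 had enough counts to be tested, the most abundant being MME at 62.9 CPM (the count scaled to the normalized library size), while the endocytic receptor gene LRP2 and the transporter gene SLC22A6 had 0 counts in all 12 libraries, which allows a level of up to 0.0357 CPM over all the libraries together, for counting error only. CUBN, SLC34A1 and AQP1 had 29, 11 and 7 counts in all. Of 9 markers of renal epithelium, 7 were tested, with KRT8 at 1889 and PAX8 at 196 CPM. Of markers of other cell types, 3 of 5 for fibroblasts (COL1A1 at 21.8 CPM, LUM at 14.9 CPM), 1 of 5 for the distal nephron (CALB1 at 1.31 CPM), 0 of 4 for endothelium and 0 of 4 for leukocytes had enough counts to be tested. The cells carry renal epithelial transcripts and lack several defining ones of the proximal tubule. Markers also differ between the groups compared. The summed CPM of the proximal tubule markers was 100.4 to 114 in short-term libraries without knockdown and 144 to 154 with it, and 78.0 to 97.7 and 162 to 175 in the long-term ones. Those of the fibroblast markers summed to 49.2 to 50.6 and 52.3 to 56.8 CPM in short-term libraries, without and with knockdown, and to 24.6 to 31.7 and 26.5 to 36.5 CPM in long-term libraries, which overlap. The 3 tested fibroblast markers did not go together: in long-term cells, without and with knockdown, LUM had 0.960 ± 0.652 and 12.1 ± 2.72, PDGFRB 7.41 ± 2.04 and 0.658 ± 0.461, and COL1A1 18.7 ± 3.06 and 18.2 ± 6.64 CPM (SD, n = 3). The distal nephron markers, low throughout, summed to 0.943 to 1.37 and 0.127 to 0.885 CPM short-term and 2.95 to 5.95 and 0 to 0.231 CPM long-term, in the same order. The endothelial ones had at most 2.20 CPM, in long-term nontarget cells, and the leukocyte ones at most 0.518 CPM. Summed CPM of the renal epithelial markers was 2739 to 3013 and 3212 to 4085 short-term and 3423 to 3811 and 2649 to 3574 long-term. Within that list KRT19 had 32.8 ± 5.67 and 32.6 ± 1.21 CPM short-term but 5.07 ± 1.40 and 4.19 ± 1.66 CPM long-term.

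AMPK is a sensor of cellular energy. Each complex holds an α subunit, which is the kinase, a β subunit, which is the scaffold and binds glycogen, and a γ subunit, which binds AMP, ADP and ATP. When AMP rises, the kinase LKB1, in a complex with STRAD and MO25 proteins, activates AMPK by phosphorylating the activation loop of α, and CAMKK2 does so when calcium rises. Active AMPK slows lipid and protein synthesis and promotes glucose uptake, autophagy and mitochondrial upkeep. Folliculin, the product of FLCN, binds AMPK through its partners FNIP1 and FNIP2. In the kidney, AMPK is studied for its control of transport and of energy use in tubule cells, and loss of FLCN causes Birt-Hogg-Dubé syndrome with kidney tumors.

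In the data, 3 libraries stood apart from the others of their groups: replicate 3 of short-term knockdown, of long-term nontarget and of long-term knockdown. The chi-square per degree of freedom between replicates was 6.86 to 13.1 for the pairs with one of these libraries and 2.15 to 5.30 for the other pairs, where 1 is counting error alone. Each gene's deviation from its group mean rose with the GC share of its longest transcript in these 3 libraries, with a Pearson r of 0.480, 0.555 and 0.586 across 13938 genes, which are not independent replicates. In the same order, the most GC-rich 25% of genes lay above the most GC-poor 25% by a median of 0.33, 0.35 and 0.41 on the log2 scale. Replicate 1 of long-term nontarget had the opposite slope, with an r of −0.588. The mitochondrial share of the counts was 3.34%, 2.73% and 2.72% in the long-term nontarget libraries and 3.79% to 5.60% in the libraries of the other groups. That group is compared in the calls of PRKAB2 after long-term knockdown and of PRKAA1 in long-culture nontarget cells. The part of this share in them was not tested. Among the 8 genes, PRKAA2 and PRKAA1 are poor in GC (35.2% and 35.3%, the 2.10th and 2.27th percentile of the genes tested) and STK11 is rich (65.8%, the 97.5th percentile). For these 3 genes above all, values are therefore given also without the 3 libraries and with offsets that remove each library's trend with GC, both chosen after the libraries were seen. The offsets use each gene's deviation from its mean over all libraries, so a GC trend that differs between groups is removed as well.

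**Figure D1:**
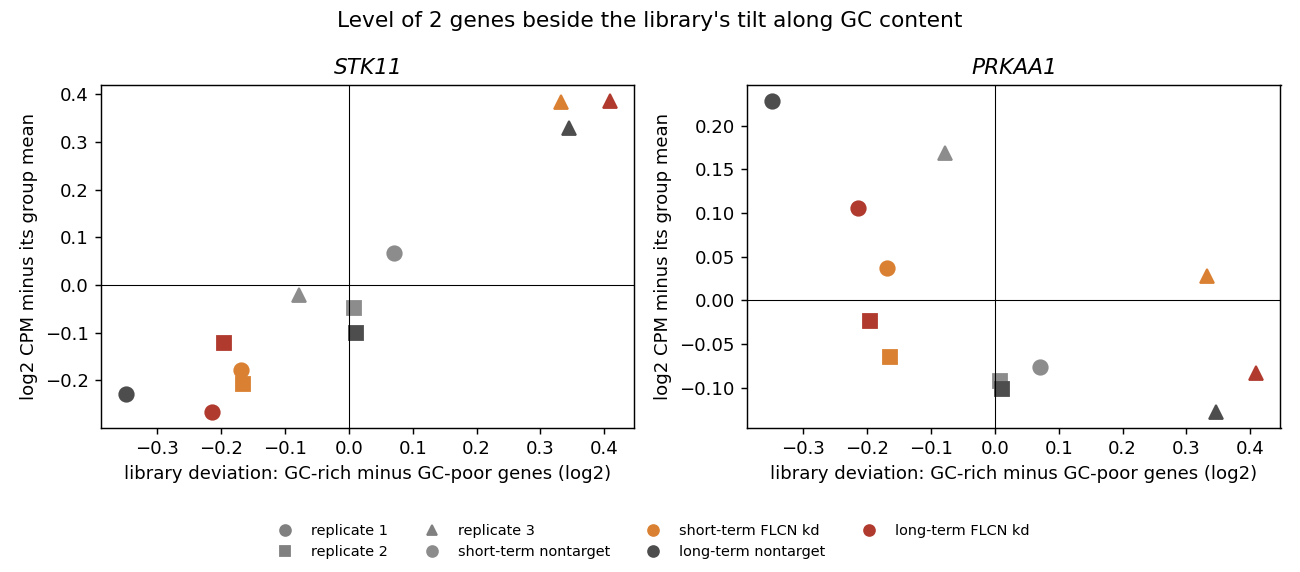
Log2 CPM of STK11 and of PRKAA1 minus its group mean in each of the 12 libraries, against the library's median deviation of GC-rich minus GC-poor genes. That deviation is 0.33 or more in replicate 3 of short-term knockdown, long-term nontarget and long-term knockdown. It is −0.35 in replicate 1 of long-term nontarget, while the short-term nontarget libraries lie between −0.079 and 0.070.

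FLCN was lower in every knockdown library than in every nontarget library of the same time. Its level was 12.7, 16.7 and 16.5 CPM in the short-term nontarget libraries and 5.95, 6.58 and 5.66 CPM after short-term knockdown (log2 fold change −1.29, SE 0.174, 95% interval −1.66 to −0.92, edgeR adjusted p = 1.12e-04). In long-term cells it was 9.92, 11.9 and 12.2 CPM without and 6.70, 6.31 and 7.97 CPM with knockdown (log2 fold change −0.68, SE 0.173, 95% interval −1.04 to −0.32, edgeR adjusted p = 0.00611). The 2 effects did not differ at the threshold of 0.05 (interaction 0.61, edgeR adjusted p = 0.118), but they did with GC offsets (adjusted p = 0.0474), within 0.0323 to 0.243 over the alternatives. FLCN overlaps MPRIP on the opposite strand, which had 15633 counts against 825, and the strand setting of the counting is not stated.

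Called genes are those with an adjusted p below 0.05, by Benjamini-Hochberg over the 13959 genes, in edgeR's quasi-likelihood test on all 12 libraries. After short-term knockdown, 0 of the 8 genes were called by edgeR and 0 by DESeq2, with 3 at an unadjusted p below 0.05 in edgeR, against 5.62% of all genes called higher and 4.71% called lower. After long-term knockdown, 1 of 8 was called by edgeR and by DESeq2, PRKAB2, which was higher, where 13.7% of all genes were higher and 15.8% lower. In nontarget cells, long culture led to 1 call, PRKAA1, which was higher, with a background of 3.17% higher and 4.38% lower. The same comparison within knockdown cells called PRKAA1 alone, again higher, beside 11.5% of all genes higher and 15.2% lower. For the interaction, which tests whether the long-term effect of the knockdown differs from the short-term effect, edgeR and DESeq2 each called 0 of 8, 3 had an unadjusted p below 0.05 in edgeR, and the background was 4.98% with a higher and 8.43% with a lower long-term effect. Same-numbered libraries deviated together in the long-term knockdown comparison and in long culture of knockdown cells, though the labels state no pairing. With the number as a block in fits of these groups alone, 3 and 5 of the 8 genes were called. These fits called 5993 and 5820 genes in all. They applied the filter on low counts anew to the libraries used, and how many genes they tested is not given here. An adjusted p above the threshold does not show that a level is the same. With 8 genes, the shares of all genes amount to about 1 gene or fewer in each direction.

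The sizes of the changes can be read the same way. As a median, the log2 fold change over the 8 genes was 0.07 after short-term knockdown and 0.04 after long-term knockdown, and that of all genes tested was 0.00 in both. In long culture it was 0.05 in nontarget and −0.04 in knockdown cells, against 0.01 in both over all genes. Taken without its sign, the median change of the 8 genes was 0.19 after short-term and 0.18 after long-term knockdown, beside 0.19 and 0.28 for all genes. Only in long-culture nontarget cells (0.29 against 0.17) was it the larger of the pair by more than 0.01, and in long-culture knockdown cells it was the smaller (0.20 against 0.27). These comparisons share groups of libraries, so they are not independent of each other.

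**Figure D2:**
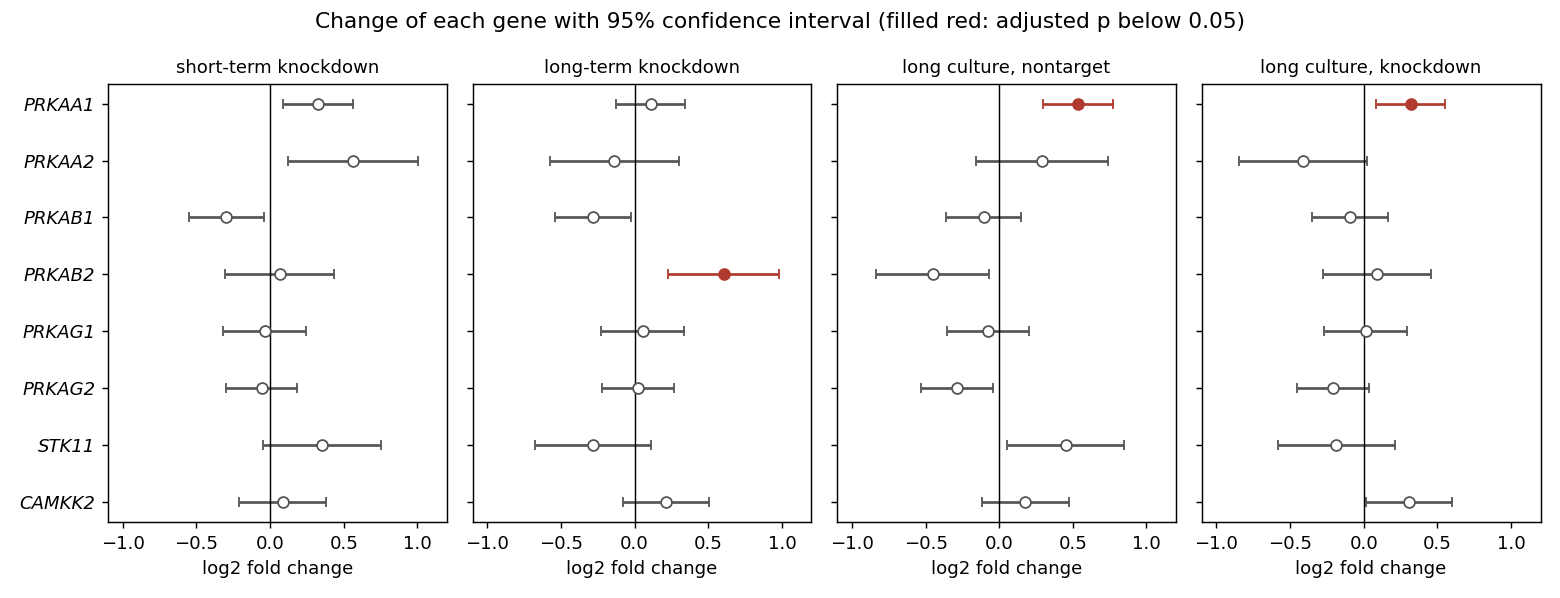
Log2 fold change of each of the 8 genes in the 4 pairwise comparisons, with its 95% confidence interval. Filled red points have an adjusted p below 0.05: PRKAA1 in both long-culture comparisons and PRKAB2 after long-term knockdown.

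Levels were compared between genes per kilobase of merged exons, as the mean over 12 libraries of CPM per kilobase. On this scale PRKAA1 stood first at 20.6, then came PRKAG1 at 12.5, PRKAG2 at 7.99, STK11 at 7.26, PRKAB1 at 5.35, CAMKK2 at 4.45, PRKAB2 at 2.54 and PRKAA2 at 1.01. PRKAG2 and STK11 lay within their spread of each other over the 12 libraries (SD 0.943 and 1.60), and they changed places in long-term nontarget cells (7.25 ± 0.890 and 8.31 ± 1.75, mean ± SD of 3). STK11 and PRKAB1 were alike in short-term nontarget cells (6.07 ± 0.256 and 6.10 ± 0.138). PRKAB1 and CAMKK2 were 4.66 ± 0.599 and 5.20 ± 0.161 after long-term knockdown, in the reverse order of the other groups. The first 2, the last 2 and their places were the same in all 4 groups. The length used matters for the top: with the longest transcript, PRKAG1 came first at 30.9 and PRKAA1 second at 26.6. PRKAG3, the γ gene of muscle, had 0 counts in all 12 libraries, at most 0.0357 CPM over all of them by the limit that a count of 0 allows.

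**Figure D3:**
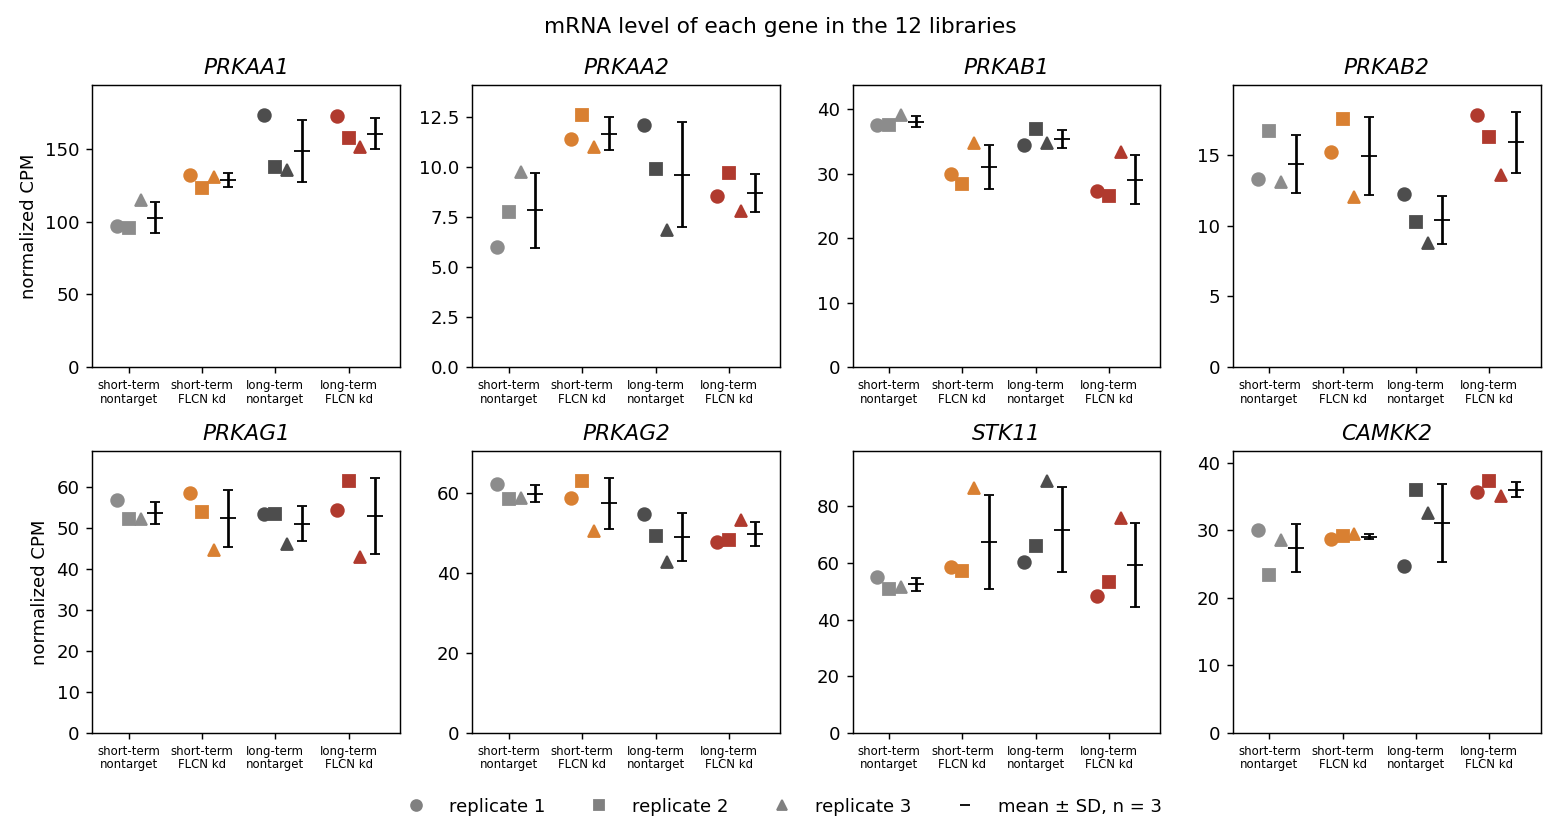
CPM of each of the 8 genes in each library, by group, with the mean and SD of 3 libraries and a marker for each replicate. PRKAA1 is lowest in short-term nontarget cells, and the replicate 3 libraries of STK11 lie above the others in the other 3 groups.

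PRKAA1 encodes α1, the catalytic subunit found in most tissues (ENSG00000132356.11, chromosome 5, 40759379 to 40798374, minus strand, GRCh38). It had 97.0, 96.0 and 115 CPM in the short-term nontarget libraries and 173, 138 and 135 CPM in the long-term ones. All 3 long-term libraries were above all 3 short-term ones, with replicate 1 the highest, a rise of 1.45-fold (log2 fold change 0.54, SE 0.112, 95% interval 0.30 to 0.77, edgeR adjusted p = 0.00568). The call was made in each of 23 alternatives, at an adjusted p of 1.18e-07 to 0.0446, and without the 3 libraries that stand apart the log2 fold change was 0.60 (adjusted p = 3.94e-04). With GC offsets it was 0.57 (adjusted p = 4.33e-05). The knockdown libraries had 132, 123 and 131 CPM in short-term and 173, 158 and 151 CPM in long-term culture. Here too the groups did not overlap, but the rise was smaller (log2 fold change 0.32, SE 0.111, 95% interval 0.09 to 0.55, edgeR adjusted p = 0.0413), and the call was lost in 8 of the 12 fits without 1 library, the adjusted p being highest, 0.170, when long-term knockdown replicate 1 was left out, and with only the 2 groups compared (adjusted p = 0.0539). The 8 libraries are short-term nontarget replicates 1 and 2, all 3 of short-term knockdown, long-term nontarget replicate 2, and long-term knockdown replicates 1 and 2. With the replicate number as a block in the 2 groups, PRKAA1 was called (log2 fold change 0.31, adjusted p = 6.77e-04). It was also called with GC offsets (0.26, adjusted p = 0.0150) and without the 3 libraries that stand apart (0.38, adjusted p = 0.0138). The range was 6.77e-04 to 0.170 over 23 alternatives. The difference between these rises was not past the threshold (interaction −0.22, 95% interval −0.55 to 0.12, edgeR adjusted p = 0.426, 0.0109 to 0.733 over the alternatives).

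The short-term knockdown libraries of PRKAA1 also lay above all 3 short-term nontarget libraries, while in long-term cells the knockdown and nontarget libraries overlapped. The short-term difference was not called (log2 fold change 0.33, SE 0.112, 95% interval 0.09 to 0.56, edgeR adjusted p = 0.0778). It was called without the 3 libraries that stand apart (adjusted p = 0.0442), without long-term nontarget replicate 1 (0.0410) and with GC offsets (log2 fold change 0.44, adjusted p = 5.83e-04), within a range of 7.46e-06 to 0.267 over 23 alternatives. In the long-term cells the change was 0.11 (95% interval −0.12 to 0.34, edgeR adjusted p = 0.505). It was 0.13 with GC offsets (adjusted p = 0.209) and 0.09 without the 3 libraries that stand apart (0.596), and ran from 0.04 to 0.23 without 1 library, with an adjusted p of 0.0890 to 0.855 over 23 alternatives.

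The median change of the genes around PRKAA1 had the same sign as that of PRKAA1 in each pairwise comparison. The 40 tested genes nearest to it, 20 on each side over 18.3 Mb of chromosome 5, had a median log2 fold change of 0.38 with long culture of nontarget cells, where PRKAA1 itself had 0.54, and 34 of the 40 were positive. In knockdown cells the neighbours' median was 0.36 with 29 positive, beside 0.32 for the gene. After short-term knockdown it was 0.25 with 33 positive, and after long-term knockdown 0.22 with 26 positive. Of 12997 windows of neighbouring genes, 7.47% and 10.6% had a median at or above these, short-term and long-term. For long culture the share of windows was 0.531% in nontarget and 2.62% in knockdown cells. The median of all genes tested was 0.01 or less in each of these comparisons. Of the 40 neighbours, 5 were called higher and 3 lower short-term (5.62% and 4.71% of all genes). After long-term knockdown 13 and 6 were called (13.7% and 15.8%). Long culture gave 10 and 2 in nontarget cells (3.17% and 4.38%) and 21 and 6 in knockdown cells (11.5% and 15.2%). In steps of 20 Mb along chromosome 5, the median in long-culture nontarget cells was 0.54 over 50 genes from 0 to 20 Mb, 0.44 over 35 genes from 20 to 40 Mb and 0.19 over 47 genes from 40 to 60 Mb, the step that holds PRKAA1, and it was between −0.01 and 0.08 in the 6 steps beyond. The first 3 steps of the short-term knockdown comparison had 0.44, 0.38 and 0.12. In both knockdown comparisons the last step, from 160 to 180 Mb, stood out as well, at 0.51 short-term and 0.55 long-term over 94 genes. The part of the neighbourhood in the change of PRKAA1 was not tested. For the other 7 genes, the median of the 40 neighbours was between −0.15 and 0.23 in the 4 pairwise comparisons, and it was 0.01 around PRKAB2 after long-term knockdown. The highest, 0.23 with 33 positive, was around PRKAG2 after long-term knockdown, beside 0.22 around PRKAA1. In long-culture nontarget cells the median was 0.16 around STK11 with 32 positive and −0.15 around PRKAG2 with 7 positive.

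PRKAA2 encodes α2, the catalytic subunit that prevails in muscle (ENSG00000162409.10, chromosome 1, 56645322 to 56715335, plus strand). Its level was low, with 6.01, 7.75 and 9.74 CPM in short-term nontarget libraries, 11.4, 12.6 and 10.97 after short-term knockdown, 12.1, 9.91 and 6.86 in long-term nontarget libraries and 8.55, 9.68 and 7.80 after long-term knockdown. All 3 short-term knockdown libraries lay above the short-term nontarget libraries and above all 3 long-term knockdown libraries, and the long-term nontarget libraries ranged widest, with replicate 3 lowest. The short-term difference was not called (log2 fold change 0.56, SE 0.210, 95% interval 0.12 to 1.01, edgeR adjusted p = 0.105). It was called without the 3 libraries that stand apart (log2 fold change 0.60, adjusted p = 0.0380) and with GC offsets (log2 fold change 0.67, adjusted p = 0.00897), within an adjusted p of 0.00383 to 0.368 over 22 alternatives. After long-term knockdown the difference had the other sign (log2 fold change −0.14, edgeR adjusted p = 0.676), although without long-term nontarget replicate 1 it was 0.06. The interaction was −0.70 (SE 0.296, 95% interval −1.33 to −0.08, edgeR adjusted p = 0.136) and passed the threshold without long-term nontarget replicate 3 (adjusted p = 0.0394), without all 3 libraries that stand apart (0.0380) and with GC offsets (−0.78, adjusted p = 0.0240), within 0.0128 to 0.307 over 20 alternatives. Within knockdown cells the long-term libraries were lower without being called (log2 fold change −0.41, edgeR adjusted p = 0.158), and they were called with the replicate number as a block in the 2 groups (log2 fold change −0.42, adjusted p = 0.0312) and with GC offsets (0.0344).

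PRKAB2 encodes β2, one of the alternative scaffold subunits (ENSG00000131791.7, chromosome 1, 147155106 to 147172550, minus strand). It had 12.2, 10.2 and 8.80 CPM in long-term nontarget libraries and 17.8, 16.3 and 13.6 CPM after long-term knockdown. Every knockdown library lay above every nontarget library, and replicate 3 was the lowest in both groups. The level was 1.52-fold higher (log2 fold change 0.61, SE 0.179, 95% interval 0.23 to 0.98, edgeR adjusted p = 0.0163). The call was lost without long-term nontarget replicate 2 (adjusted p = 0.0513), without long-term nontarget replicate 3 (0.0775) and without long-term knockdown replicate 1 (0.0845), and it was made in the other alternatives, with a range of 9.48e-04 to 0.0845 over 23 alternatives. Without the 3 libraries that stand apart it held (log2 fold change 0.59, adjusted p = 0.0133), as it did with GC offsets (log2 fold change 0.58, adjusted p = 0.00273).

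In short-term cells PRKAB2 had 13.3, 16.7 and 13.04 CPM without and 15.2, 17.5 and 12.03 CPM with knockdown, and these groups overlapped (log2 fold change 0.06, SE 0.177, 95% interval −0.31 to 0.44, edgeR adjusted p = 0.883). The long-term nontarget libraries had the lowest mean of the 4 groups and lay below all short-term nontarget libraries, a difference that was not called (log2 fold change −0.45, SE 0.182, 95% interval −0.83 to −0.07, edgeR adjusted p = 0.163, 0.0317 to 0.486 over the alternatives). The long-term effect of the knockdown exceeded the short-term effect by 0.54 on the log2 scale, which did not pass the threshold (SE 0.252, 95% interval 0.01 to 1.07, edgeR adjusted p = 0.179) in the fit of all libraries or in any of its 21 alternatives, the lowest adjusted p being 0.0677. The call in long-term cells alone thus does not show that the effect differs with time.

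PRKAB1 encodes β1, the other scaffold subunit (ENSG00000111725.10, chromosome 12, 119667753 to 119681630, plus strand). Its libraries had 37.6, 37.7 and 39.1 CPM in short-term nontarget cells, 30.0, 28.4 and 34.9 after short-term knockdown, 34.4, 37.0 and 34.8 in long-term nontarget cells and 27.4, 26.6 and 33.4 after long-term knockdown. In both knockdown comparisons all 3 knockdown libraries lay below all 3 nontarget libraries, and in each knockdown group replicate 3 was the highest. The difference was alike at both times and was called at neither: −0.30 short-term (SE 0.122, 95% interval −0.55 to −0.04, edgeR adjusted p = 0.147) and −0.28 long-term (SE 0.122, 95% interval −0.54 to −0.03, edgeR adjusted p = 0.0922). Without the 3 libraries that stand apart both were called (−0.38, adjusted p = 0.0216, and −0.40, adjusted p = 0.0149). The long-term difference was also called with the replicate number as a block in the 2 groups (−0.29, adjusted p = 0.0278), with GC offsets (0.0384) and without long-term knockdown replicate 3 (0.0299). Over 23 alternatives the adjusted p was 0.0216 to 0.346 short-term and 0.0142 to 0.252 long-term. The direction was the same in each of these alternatives.

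PRKAA1 and PRKAB2 are the only members called in any comparison, and the stretches before their starts are shown to let the reader compare them. The sequences are from RefSeq (GRCh38.p14), read 5′ to 3′ on the gene's strand, and cover only the bases before both the RefSeq and the GENCODE start. They lie at chr5:40798375-40798427 (53 bases, minus strand) and chr1:147172551-147172720 (170 bases, minus strand). Capitals mark matches to a searched motif.
PRKAA1: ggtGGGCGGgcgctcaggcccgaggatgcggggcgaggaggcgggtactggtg
PRKAB2: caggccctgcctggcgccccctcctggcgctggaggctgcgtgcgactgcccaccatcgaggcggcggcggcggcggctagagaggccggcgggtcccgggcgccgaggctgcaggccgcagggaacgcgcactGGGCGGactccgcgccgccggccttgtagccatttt
The motifs searched, on both strands of the 250 bases before each RefSeq start, were the E-box CACGTG, the cAMP response element TGACGTCA, the GC box GGGCGG and the CCAAT box. Among 35116 RefSeq promoters they were present in 6.34%, 1.65%, 42.6% and 32.0%. The 250 bases of PRKAA1 hold 8 GC boxes and 0 CCAAT boxes, of which the stretch shown has 1. Those of PRKAB2 hold 1 GC box and 1 CCAAT box. Neither the E-box nor the cAMP element occurs in any of the 12 listed promoters of the 8 genes, which says only that these letters are not in those windows.

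PRKAG1 encodes γ1, the nucleotide-binding subunit found in most tissues, and varied little. Its group means were 53.7 ± 2.66, 52.2 ± 6.999, 50.9 ± 4.23 and 52.8 ± 9.29 CPM (SD, n = 3 each) in the order short-term nontarget, short-term knockdown, long-term nontarget and long-term knockdown. The groups overlapped in all 4 pairwise comparisons, and the 95% intervals of the 4 log2 fold changes all lay between −0.36 and 0.34. It overlaps DDN-AS1 on the opposite strand, which had 212 counts against 4410.

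PRKAG2 encodes γ2, known for mutations that cause heart muscle disease with glycogen storage (ENSG00000106617.13, chromosome 7, 151556111 to 151877125, minus strand). It had 62.2, 58.3 and 58.6 CPM in short-term and 54.7, 49.2 and 42.7 CPM in long-term nontarget libraries. All 3 long-term libraries lay below the short-term ones, which was not called (log2 fold change −0.29, SE 0.116, 95% interval −0.53 to −0.04, edgeR adjusted p = 0.163, 0.0277 to 0.437 over the alternatives). After knockdown the libraries had 58.6, 62.9 and 50.4 CPM in short-term and 47.6, 48.3 and 53.1 CPM in long-term culture, and these overlapped because of replicate 3 (log2 fold change −0.21, edgeR adjusted p = 0.205). The difference was called without the 3 libraries that stand apart (log2 fold change −0.34, adjusted p = 0.0198) and with the replicate number as a block in the 2 groups (0.0495). In neither knockdown comparison did the groups differ by more than 0.06 on the log2 scale.

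Each subunit has a second gene, and the share of that gene can be followed within a library, where it does not depend on the library's total. It was computed from CPM per kilobase of merged exons and tested by an exact two-sided permutation test of 3 libraries against 3, whose smallest possible p is 0.1, so that 0 of the 12 tests could pass 0.05. For the scaffold, β2 made up 28.8%, 24.0% and 22.4% of the β transcripts in long-term nontarget libraries and 42.6%, 41.2% and 31.7% after long-term knockdown. The groups did not overlap, and the mean was 13.4 percentage points higher (exact p = 0.1, adjusted over 12 tests 0.4). In short-term cells the share was 28.7%, 33.7% and 27.6% without and 36.7%, 41.4% and 28.3% with knockdown, which overlapped (5.47 points, exact p = 0.3, and 2.49 to 9.05 points without 1 library). Replicate 3 had the lowest β2 share in all 4 groups. Of the α transcripts in short-term libraries, PRKAA2 made up 5.04 ± 0.771% without and 5.98 ± 0.622% with knockdown, and in long-term libraries 4.29 ± 0.751% and 3.66 ± 0.411% (SD, 3 libraries). Within knockdown cells every long-term library had a lower α2 share than every short-term library (difference −2.33 points, exact p = 0.1). The γ2 share was lower by 3.59 points in long-term than in short-term nontarget cells, 40.9 ± 0.319% short-term and 37.3 ± 1.40% long-term, again without overlap (exact p = 0.1).

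**Figure D4:**
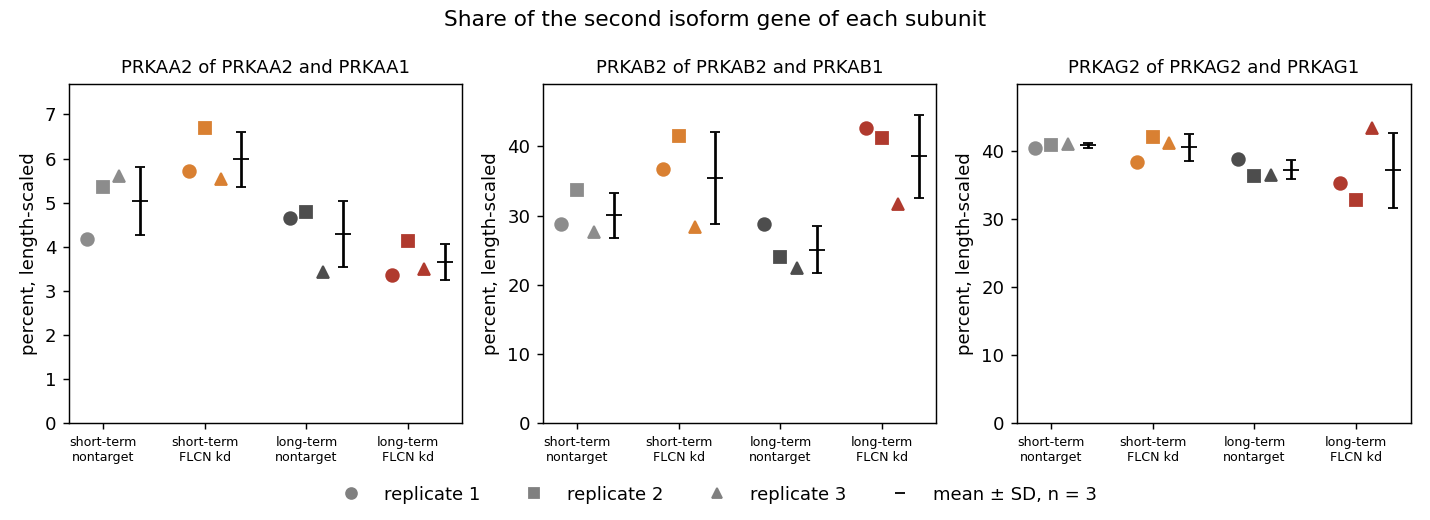
Share, in percent, of the second gene of each subunit in the length-scaled transcripts of both genes, by library, with the mean and SD of 3 libraries per group. The β2 share separates long-term knockdown from long-term nontarget libraries, and its replicate 3 libraries are the lowest of each group.

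STK11 encodes LKB1, the kinase that activates AMPK and a set of related kinases (ENSG00000118046.14, chromosome 19, 1177558 to 1228435, plus strand). It had 54.9, 50.7 and 51.7 CPM in short-term nontarget libraries, 58.5, 57.3 and 86.4 after short-term knockdown, 60.4, 66.0 and 88.9 in long-term nontarget libraries and 48.3, 53.4 and 76.0 after long-term knockdown. The 3 libraries that stand apart hold the highest value of their groups, so the differences are given with and without them. After short-term knockdown the log2 fold change was 0.35 with them (edgeR adjusted p = 0.285) and 0.14 without them (adjusted p = 0.384), and 0.17 with GC offsets (adjusted p = 0.145). After long-term knockdown it was −0.28 with them (SE 0.186, edgeR adjusted p = 0.283) and −0.31 without (adjusted p = 0.0293). Without those libraries the knockdown libraries, at 48.3 and 53.4 CPM, were below the nontarget libraries, at 60.4 and 66.0 CPM. GC offsets gave −0.22 (adjusted p = 0.0267), and leaving out long-term knockdown replicate 3 alone gave −0.50 (adjusted p = 0.0406). With the replicate number as a block in the 2 groups the adjusted p was 0.00569 (−0.28). Over 23 alternatives it was 0.00569 to 0.732, and the sign stayed negative.

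Between short-term and long-term nontarget cells STK11 was higher in every long-term library than in every short-term one (log2 fold change 0.45, SE 0.187, 95% interval 0.05 to 0.85, edgeR adjusted p = 0.183), which was not called. It was called with no filter on low counts (0.0139), with only the 2 groups compared (0.0435) and with GC offsets (log2 fold change 0.32, adjusted p = 0.00790), and it was 0.27 without the libraries that stand apart (adjusted p = 0.0882), within a range of 0.00264 to 0.555 over 23 alternatives. The interaction was −0.64 (SE 0.265, 95% interval −1.20 to −0.08, edgeR adjusted p = 0.132). It was smaller in size with GC offsets (−0.40, adjusted p = 0.0124) and without the 3 libraries (−0.45, adjusted p = 0.0351), both past the threshold, as were the fits with no filter (0.0104) and without long-term knockdown replicate 3 (0.0193). The range was 0.00507 to 0.295 over 21 alternatives, and the sign was negative in each. In knockdown cells, long-term and short-term libraries overlapped (log2 fold change −0.19, edgeR adjusted p = 0.511), and were told apart only with the replicate number as a block in the 2 groups (log2 fold change −0.20, adjusted p = 0.0419). STK11 overlaps CBARP on the opposite strand, which had 263 counts against 5201.

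CAMKK2 encodes the calcium-dependent kinase that can activate AMPK without LKB1 (ENSG00000110931.18, chromosome 12, 121237691 to 121298308, minus strand). It had 30.1, 23.4 and 28.6 CPM in short-term nontarget libraries, 28.7, 29.1 and 29.4 after short-term knockdown, 24.7, 35.9 and 32.6 in long-term nontarget libraries and 35.7, 37.3 and 35.1 after long-term knockdown. The knockdown groups were tight and the nontarget groups wide, and neither knockdown comparison separated them (log2 fold change 0.09, edgeR adjusted p = 0.787, and log2 fold change 0.21, edgeR adjusted p = 0.269). The long-term value ran from 0.07 to 0.32 without 1 library, with an adjusted p of 0.0890 to 0.723 over 23 alternatives. Within knockdown cells the long-term libraries were all above the short-term ones (log2 fold change 0.31, SE 0.139, 95% interval 0.02 to 0.60, edgeR adjusted p = 0.114), which was not called, and was called with GC offsets (adjusted p = 0.0358) and with the replicate number as a block in the 2 groups (0.30, adjusted p = 0.0126), within 0.0126 to 0.268 over 23 alternatives.

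The partners and relatives of these upstream kinases were all measured. The shares of all genes to set beside the counts of this list and the next ones are 5.62% higher and 4.71% lower short-term, and 13.7% higher and 15.8% lower long-term. Of 9 listed genes (STK11, its STRAD partners STRADA and STRADB, the MO25 genes CAB39 and CAB39L, CAMKK1, CAMKK2, and MAP3K7 with TAB1), 0 were called after short-term knockdown by edgeR and 0 by DESeq2, with 1 at an unadjusted p below 0.05 in edgeR and a median log2 fold change of 0.09 (all genes 0.00). After long-term knockdown 1 was higher and 1 lower, with a median of 0.10. The higher gene was CAMKK1, the relative of CAMKK2, which went from 11.5 ± 1.61 to 22.6 ± 2.08 CPM (SD, n = 3; log2 fold change 0.95, SE 0.161, 95% interval 0.61 to 1.29, edgeR adjusted p = 2.19e-04). Knockdown and nontarget libraries did not overlap at either time, and the short-term difference was not called (log2 fold change 0.53, edgeR adjusted p = 0.0719) and was called with GC offsets (adjusted p = 0.0427) and without short-term nontarget replicate 1 (0.0493). The lower gene was CAB39, whose product MO25α holds LKB1 in its active form, at 97.2 ± 11.1 and 68.3 ± 6.85 CPM (log2 fold change −0.51, SE 0.106, 95% interval −0.73 to −0.28, edgeR adjusted p = 0.00144). STRADA was low, at most 2.49 CPM in any library, and its long-term difference was not called (log2 fold change 0.78, edgeR adjusted p = 0.0680). STRADB (0.03 and −0.14), CAB39L (0.42 and −0.18) and MAP3K7 (−0.06 and 0.10) had the log2 fold changes given, short-term and long-term, and were called in neither.

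FLCN's own complex is the link between FLCN and AMPK. Of 9 genes listed for it and for docking on the lysosome, 1 was higher and 1 lower after short-term knockdown, and 2 were higher and 2 lower after long-term knockdown (medians 0.12 and 0.14). FLCN was the one lower gene short-term and among the lower genes long-term. FNIP1 did not pass in either (−0.06, edgeR adjusted p = 0.867, and 0.01, 0.958). FNIP2 had 22.0, 23.8 and 20.7 CPM in short-term nontarget and 44.8, 54.5 and 41.9 CPM in short-term knockdown libraries, a rise to 2.11 times the nontarget level (log2 fold change 1.08, edgeR adjusted p = 7.44e-05). In long-term cells it had 24.4, 27.7 and 22.1 CPM without and 11.9, 12.03 and 9.67 CPM with knockdown, a fall (log2 fold change −1.11, edgeR adjusted p = 2.06e-05). Every library followed these directions, and the interaction was −2.19 (SE 0.203, edgeR adjusted p = 1.10e-06). The Ragulator genes LAMTOR2 (log2 fold change 0.67, edgeR adjusted p = 5.12e-04) and LAMTOR4 (log2 fold change 0.33, edgeR adjusted p = 0.0215) were higher after long-term knockdown. LAMTOR4 was not called without long-term nontarget replicate 1 (adjusted p = 0.0826), without long-term knockdown replicate 3 (0.0623), with no filter (0.0672) or with only the 2 groups compared (0.0655).

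AMPK acts on its targets mostly by phosphorylation, which RNA does not show, so their transcripts are given as a description. Of 24 listed genes for AMPK substrates, all tested, 4 were higher and 2 lower in each knockdown comparison, beside 5.62% and 4.71% of all genes short-term and 13.7% and 15.8% long-term, with medians of 0.03 short-term and 0.01 long-term against 0.00 for all genes. PPARGC1A, a coactivator of mitochondrial genes, was higher in both (log2 fold changes 0.72, edgeR adjusted p = 0.00852, and 1.45, 3.33e-06), although the short-term call was lost without short-term nontarget replicate 1 (0.0532) or replicate 2 (0.0610). TXNIP, which limits glucose uptake, was higher in both as well, at 18.7, 19.0 and 20.6 CPM in short-term nontarget and 36.8, 39.9 and 37.2 CPM in short-term knockdown libraries (log2 fold change 0.96, edgeR adjusted p = 7.44e-05), and at 22.5, 19.0 and 24.2 and 56.3, 48.7 and 51.4 CPM in the long-term ones (log2 fold change 1.24, edgeR adjusted p = 5.24e-07). FOXO3, a transcription factor that is not among the 4 called genes of highest mean CPM and is given because those are all higher short-term, was lower in both. It had 35.9, 34.6 and 32.5 CPM without and 19.99, 18.1 and 20.2 CPM with short-term knockdown (log2 fold change −0.81, edgeR adjusted p = 3.32e-04), and 34.2, 35.9 and 34.8 and 19.9, 15.6 and 19.0 CPM in long-term cells (log2 fold change −0.93, edgeR adjusted p = 1.83e-05). PFKFB3, a regulator of glycolysis, was called only short-term (log2 fold change 0.67, edgeR adjusted p = 0.00134), as was the mitochondrial fission factor MFF (log2 fold change 0.35, edgeR adjusted p = 0.0408). MFF lost its call in 7 of 12 fits without 1 library, the adjusted p being highest, 0.158, when short-term nontarget replicate 3 was left out, and with no filter (0.103). The 7 libraries are all 3 of short-term nontarget and replicates 1 and 2 of both knockdown groups. After long-term knockdown alone, SREBF1, a transcription factor of lipid synthesis, was called higher (log2 fold change 0.58, edgeR adjusted p = 0.00765) and TBC1D1, a regulator of glucose transport, lower (log2 fold change −0.41, edgeR adjusted p = 0.00218).

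The acetyl-CoA carboxylase genes ACACA and ACACB encode the substrates by which AMPK activity is most often read, and neither was called in a knockdown comparison. ACACA had −0.27 short-term (edgeR adjusted p = 0.193) and 0.26 long-term (0.132), with an interaction of 0.53 (0.0529). Its long-term difference was called with the replicate number as a block in the 2 groups (adjusted p = 0.0168), without long-term knockdown replicate 3 (0.0305) and without the 3 libraries that stand apart (0.0152). ACACB had 0.54 (0.198) and 0.16 (0.659). The autophagy kinase gene ULK1 was not called either (0.52, 0.170, and 0.27, 0.391), but its short-term difference was with no filter (adjusted p = 0.0145), and its long-term difference was with GC offsets (0.0448) and with the replicate number as a block in the 2 groups (0.0255).

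LKB1 also activates the AMPK-related kinases. Of 12 listed, 11 were tested, and 0 were called after short-term knockdown by edgeR and 0 by DESeq2, with 1 at an unadjusted p below 0.05 in edgeR (median 0.10). After long-term knockdown 1 was higher and 2 were lower (median −0.17, all genes 0.00). NUAK1 fell from 118, 123 and 117 to 67.6, 69.1 and 81.2 CPM (log2 fold change −0.72, SE 0.101, 95% interval −0.93 to −0.50, edgeR adjusted p = 3.33e-05), in every library. Its short-term difference had the other sign (log2 fold change 0.20, edgeR adjusted p = 0.243), and the interaction was −0.92 (edgeR adjusted p = 2.22e-04). SIK2 was higher (log2 fold change 0.50, edgeR adjusted p = 0.0214) and MARK4 lower (log2 fold change −0.45, edgeR adjusted p = 0.0378). Both depend on single libraries: SIK2 was not called without long-term nontarget replicate 2 (0.0791) or without long-term knockdown replicate 1 (0.0559) or 2 (0.0638), and MARK4 was not called without long-term nontarget replicate 2 (0.0697) or 3 (0.144) or without long-term knockdown replicate 1 (0.147) or 2 (0.0575).

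The adenine nucleotides that γ senses are kept in balance by adenylate kinases, AMP deaminases and enzymes of AMP synthesis. Of 12 such genes 11 were tested, and 0 were called after short-term knockdown by edgeR and 0 by DESeq2, with 0 at an unadjusted p below 0.05 in edgeR, while 2 were higher and 3 lower after long-term knockdown, beside 13.7% and 15.8% of all genes (medians 0.02 and −0.14). AK3, of the mitochondrial matrix, had 16.4, 18.2 and 20.9 CPM in short-term nontarget and 17.5, 17.4 and 20.4 CPM in short-term knockdown libraries. In long-term culture it had 6.30, 4.96 and 5.18 CPM without and 19.4, 16.6 and 13.9 CPM with knockdown. Thus the long-term nontarget group is the low one, below every library of the other 3 groups (log2 fold change 1.56, SE 0.175, 95% interval 1.19 to 1.93, edgeR adjusted p = 2.88e-06 for the knockdown in long-term cells, and −1.70, edgeR adjusted p = 8.41e-06, for long culture in nontarget cells). AK1, of the cytosol, was lower (log2 fold change −0.73, edgeR adjusted p = 0.0121), as was the AMP synthesis gene ADSS2 (log2 fold change −0.47, edgeR adjusted p = 0.00123). AK1 was not called without long-term nontarget replicate 3 (0.0651), without long-term knockdown replicate 2 (0.0507) or without the 3 that stand apart (0.0568).

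Genes that restrain or tune AMPK complete the pathway. Of 8 listed, among them sestrins, phosphatases and the ubiquitin ligase gene UBE2O, 1 was lower after short-term knockdown, and 1 was higher and 1 lower after long-term knockdown (medians −0.17 and −0.04). The short-term gene was the sestrin gene SESN3, at 2.60, 2.58 and 3.30 CPM without and 0.759, 0.585 and 0.885 CPM with knockdown (log2 fold change −1.60, SE 0.306, 95% interval −2.25 to −0.95, edgeR adjusted p = 0.00242). After long-term knockdown UBE2O, whose product marks α2 for degradation, was higher (log2 fold change 0.62, edgeR adjusted p = 0.00497), and the phosphatase subunit gene PPP2CB was lower (log2 fold change −0.54, edgeR adjusted p = 3.46e-04).

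For each of the 8 genes, the genes with the most similar profile, of which 2 or 3 are given, were found among the 9369 tested genes whose mean reached 10 CPM, by Pearson's r of log2 CPM over the 12 libraries, as a description. The libraries share their groups and the GC trend described above, and their part in these values was not tested. For PRKAA1 they were SLC44A1 (0.957), TRIP13 (0.952) and OTULIN (0.941), of which TRIP13 and OTULIN lie on chromosome 5 as PRKAA1 does. For PRKAA2, BMPR1A (0.872) and PKP4 (0.871) are given. The β genes had TGM2 (0.939), RTN2 (0.927) and GPRC5A (0.926) for PRKAB1 and TIPARP (0.947), NIT2 (0.936) and AC010761.1 (0.934) for PRKAB2. The γ genes had CEP63 (0.946), C12orf4 (0.917) and CWC15 (0.914) for PRKAG1 and GBP3 (0.908), METTL17 (0.902) and PCCA (0.893) for PRKAG2. STK11 was most like RAB35 (0.966), UBE2S (0.965) and SNAPC4 (0.961), and CAMKK2 most like RUNDC1 (0.862), SLC39A11 (0.849) and NUDT3 (0.848). In none of these lists did another of the 8 genes appear.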

How the data were processed

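The deposited values used are the authors' raw counts per gene (STAR, featureCounts, GRCh38). The 12 normalized columns were not used. IDs were matched without version to GENCODE 29. edgeR 4.0.16 (R 4.3.3) was run with filterByExpr (13959 genes, 99.8% of counts), TMM factors, one robust quasi-likelihood fit of all 12 libraries, prior count 2, and Benjamini-Hochberg over all genes tested. SE is the log2 fold change's size divided by the root of F. The biological coefficient of variation was 12.0%. Members and lists were chosen with earlier results of these data known. Named are the members, FLCN, FNIP genes, PRKAG3, upstream kinases and partners, ACACA, ACACB, ULK1, PPARGC1A, FOXO3, and per list and knockdown comparison up to 4 called genes of highest mean CPM. Alternatives were RLE factors, DESeq2 1.42.0, other filters, a block, fewer groups and fewer libraries. GC offsets, leaving out 3 libraries together, the block in 2 groups and a prior count of 0.125 were added after seeing the data, the last on comparing fold changes with an earlier text on them. Same-numbered libraries deviated together in long-term knockdown against long-term nontarget (r 0.284, 0.123 and 0.458) and against short-term knockdown (0.223, 0.292 and 0.455). They did not with short-term nontarget (−0.101 to 0.111). The labels do not say that numbers pair libraries. Of unlike number, long-term nontarget replicate 1 and long-term knockdown replicate 2 had an r of 0.231. The block in 2 groups treats the numbers as pairs, which was not tested. With that block, PRKAB1 after long-term knockdown had an adjusted p of 0.0278. In counts simulated with known changes, without the GC trend of these libraries, fewer than 15% of the calls were false, the limit set for that check. Most 2-fold but few 1.5-fold changes were called in them. The share of false calls in the real libraries was not tested.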

Additional observations from a re-analysis of the deposited data

Results flagged for a closer look

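In 8 of the genes named in the report from the pathway lists, 0 of them among the 8 members, the long-term effect of the FLCN knockdown differed from the short-term effect by edgeR's interaction test, adjusted over all genes tested. In the lists, 2 more genes, which the report does not name, passed this test, which makes 10 of 78 listed genes tested, a share like that of all genes (4.98% with a higher and 8.43% with a lower long-term effect). The value given is the difference of the log2 fold changes, long-term minus short-term. FNIP2 had the widest difference of the 8, −2.19 (adjusted p = 1.10e-06), with a rise short-term and a fall long-term. AK3 differed by 1.57 (1.47e-04), being low in long-term nontarget cells. SREBF1 differed by 0.96 (0.00631), from −0.39 short-term to 0.58 long-term. PPARGC1A, higher at both times, differed by 0.73 (0.0456). NUAK1 differed by −0.92 (2.22e-04) and ADSS2 by −0.65 (0.00342), both with a fall long-term alone past the threshold. PFKFB3 differed by −0.53 (0.0445) and MFF by −0.53 (0.0223), both with a rise short-term alone past the threshold. Of these interactions, 3 depend on single libraries: that of PPARGC1A was not called in 9 of 12 fits without 1 library (adjusted p up to 0.145), that of PFKFB3 in 8 (up to 0.116) and that of MFF in 4 (up to 0.0609).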

How the results depend on the processing

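Over the log2 fold changes of the named genes, 1864 values under an alternative kept both their sign and whether they were called. With the sign kept, 67 gained a call and 53 lost one, and 55 were of the other sign. The size was not part of this count. RLE factors, DESeq2 and the prior count of 0.125 changed no call of a member, and the prior count changed no p. PRKAA1 in long-culture nontarget cells was called in every alternative. Genes under 10 CPM, PRKAA2 and FLCN among them, have no value under the filter at 10 CPM, and the interaction has none with only the groups compared. Depth limits genes with few counts in all, among them PRKAA2 (788), STRADA (136) and SESN3 (126). The causes of the shifts below were not tested.

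The numbers of members called after short-term knockdown, after long-term knockdown, in long-culture nontarget cells, in long-culture knockdown cells and for the interaction were 2, 3, 2, 3 and 2 with GC offsets (2358, 5368, 1921, 4973 and 3001 of all genes, against 1441, 4119, 1054, 3719 and 1872 without them). They were 3, 3, 4, 4 and 3 with GC offsets and the replicate block (3233, 6211, 2737, 5820 and 3953 genes). With the replicate block alone they were 1, 2, 2, 1 and 1 (2359, 5137, 1786, 4805 and 2879 genes). The block in the 2 groups gave 1, 3, 2 and 5 members (1733, 5993, 1336 and 5820 genes). Short-term nontarget libraries did not deviate together with those of the same number in other groups. In comparisons with them the replicate block called PRKAA1 short-term (0.32, adjusted p = 0.0254). It also called STK11 in long-culture nontarget cells (0.42, 0.0194) and for the interaction (−0.61, 0.0113). Without the 3 libraries that stand apart the numbers were 3, 3, 1, 2 and 2 (2142, 4500, 1591, 4188 and 2388 genes). No filter gave 2 (1281 genes) in long-culture nontarget cells and 1 (2168 genes) for the interaction, only the groups compared gave 2 (1284 genes) in long-culture nontarget and 0 (2854 genes) in long-culture knockdown cells, and the filter at 10 CPM left 666 genes called in long-culture nontarget cells, with fewer genes tested.

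Without 1 library, members called ranged from 0 to 1 short-term, 0 to 3 long-term, 0 to 1 in long-culture knockdown cells and 0 to 1 for the interaction, with 1 in each fit in long-culture nontarget cells. Genes called ranged from 874 to 1688 short-term, 3295 to 4521 long-term, 581 to 1288 in long-culture nontarget cells, 2829 to 3872 in long-culture knockdown cells and 1463 to 2291 for the interaction. The log2 fold changes that changed sign or call ranged as follows. PRKAA1: 0.28 to 0.41 short-term, 0.26 to 0.36 in long-culture knockdown cells. PRKAA2: −0.34 to 0.0620 long-term, −0.90 to −0.50 interaction. PRKAB1: −0.39 to −0.23 long-term, −0.0892 to 0.0972 interaction. PRKAB2: −0.0626 to 0.19 short-term, 0.49 to 0.74 long-term, −0.0317 to 0.22 in long-culture knockdown cells. PRKAG1: −0.12 to 0.0637 short-term, −0.0720 to 0.18 long-term, −0.11 to 0.14 in long-culture knockdown cells, −0.0358 to 0.22 interaction. PRKAG2: −0.13 to 0.0238 short-term, −0.0755 to 0.11 long-term, −0.0176 to 0.17 interaction. STK11: −0.50 to −0.11 long-term, −0.40 to 0.0248 in long-culture knockdown cells, −0.85 to −0.43 interaction. CAMKK2: −0.0145 to 0.16 short-term, −0.0110 to 0.23 interaction. Short-term, FNIP1 ranged over −0.0987 to 0.0229, STRADB −0.0531 to 0.0824, CAMKK1 0.43 to 0.69, MAP3K7 −0.0893 to 0.00292, PPARGC1A 0.60 to 0.91 and MFF 0.30 to 0.39. Long-term, FNIP1 ranged over −0.0857 to 0.14, CAB39L −0.43 to 0.0143, ACACA 0.17 to 0.36, ACACB −0.0710 to 0.36, SIK2 0.46 to 0.52, MARK4 −0.53 to −0.36, AK1 −0.92 to −0.59 and LAMTOR4 0.27 to 0.37. CAB39 ranged over −0.36 to −0.22 in long-culture knockdown cells and NUAK1 over 0.40 to 0.45 in long-culture nontarget cells.

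With neither sign nor call changed, these moved by over 1.5 times without 1 library. PRKAA1: 0.0381 to 0.23 long-term, −0.30 to −0.0913 for the interaction. PRKAA2: 0.0908 to 0.48 in long-culture nontarget cells. PRKAB1: −0.20 to −0.00907 in long-culture knockdown cells. PRKAG1: −0.12 to −0.0140 in long-culture nontarget cells. PRKAG2: −0.29 to −0.14 in long-culture knockdown cells. STK11: 0.14 to 0.46 short-term, 0.26 to 0.56 in long-culture nontarget cells. CAMKK2: 0.0740 to 0.32 long-term, 0.0621 to 0.32 in long-culture nontarget cells. Other genes: STRADA 0.26 to 0.72 short-term, STRADB −0.23 to −0.0478 long-term, CAB39L 0.25 to 0.57 short-term, MAP3K7 0.0296 to 0.21 long-term, ACACA −0.36 to −0.16 short-term, ULK1 0.33 to 0.68 short-term, ULK1 0.0705 to 0.56 long-term.

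Small values of the other sign were these. PRKAB1, interaction: −0.0149 with GC offsets, −0.0130 with the replicate block added, −0.0177 without the 3 libraries. PRKAG1: 0.0635 short-term without the 3 libraries, and in long-culture knockdown cells −4.51e-04 with the filter at 10 CPM, −0.00248 with GC offsets and −0.00390 with the replicate block added. PRKAG2: 0.0228 short-term, −0.12 long-term and −0.14 for the interaction without the 3 libraries, and long-term −0.00104 with GC offsets and −0.00378 with the replicate block added. FNIP1 short-term: 0.0229 with GC offsets, 0.0191 with the replicate block added, 0.0222 without the 3 libraries, and long-term −8.66e-04 with the replicate block in the 2 groups. MAP3K7 short-term: 0.0261 with GC offsets, 0.0263 with the replicate block added, 0.00258 without the 3 libraries.

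The share of PRKAB2 in long-culture knockdown cells differed by −0.529 to 6.46 points without 1 library, and that of PRKAG2 by −1.04 to 0.782 short-term and −3.21 to 2.09 long-term. Other share differences that moved by over 1.5 times, in points, were those of PRKAA2 0.499 to 1.22 short-term, PRKAA2 −1.07 to −0.384 long-term, PRKAA2 −1.19 to −0.320 in long-culture nontarget cells, PRKAB2 2.49 to 9.05 short-term, PRKAB2 −6.79 to −3.09 in long-culture nontarget cells, PRKAG2 −6.51 to −1.20 in long-culture knockdown cells. By the longest transcript, levels per kilobase were 26.6 for PRKAA1, 8.32 for PRKAB1, 30.9 for PRKAG1, 16.3 for PRKAG2, 17.6 for STK11 and 5.52 for CAMKK2, since the lengths differ.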
